A study of Mus musculus with 18 samples.

Results

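The T and B lymphocyte genes described here are 9 genes of the 25124 in each gene count table, taken by their symbols: the T cell receptor chains Cd3d, Cd3e and Cd3g, the coreceptors Cd4 and Cd8a, the kinase Lck, the regulatory T cell factor Foxp3, and the B cell receptor signalling chains Cd79a and Cd79b. They were chosen to follow lymphocyte content by fat depot and genotype. RNA was sequenced from the subcutaneous inguinal fat pad (iWAT), the visceral epididymal fat pad (eWAT), both white fat, and from brown fat (BAT) of male mice on a C57BL/6J background that were either wild-type (WT) or lacked caspase-6 in the whole body (C6KO). Every mouse in all 6 groups ate a high fat diet (60% of energy as fat) for 12 weeks from an age of 10 to 14 weeks, and WT and C6KO mice were littermates from heterozygous crosses. There were 3 libraries per group and 18 in all, and none came from mice on a chow diet. The deletion is global, so the lymphocytes carry it as well as the adipocytes.

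T cells recognise antigen through a receptor whose signal is carried by the CD3 chains, with CD4 on helper cells or CD8 on cytotoxic cells docking on the presenting molecule and bringing the kinase LCK. B cells signal through the CD79A and CD79B pair that sits beside their surface immunoglobulin. FOXP3 is the transcription factor that defines regulatory T cells, which visceral fat of lean mice is known to hold, and lymphocytes also gather in lymphoid clusters of visceral fat and in lymph nodes embedded in fat pads.

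Libraries held 16506034 to 19043523 counts in iWAT, and the eWAT libraries 16717201 to 19139694, while those of BAT were shallower at 7803108 to 12428683. Levels are given as CPM, the counts of a gene per 1000000 counts of its library, after scaling library sizes by the trimmed mean of M values (TMM), so that in BAT a count of 3 stood for 0.27 to 0.438 CPM and in white fat for 0.147 to 0.178 CPM. Casp6 was lower in every C6KO library (3.32 to 8.08 CPM) than in any WT library (11.9 to 21.2 CPM), with 26 to 141 counts remaining in the C6KO libraries. The edgeR estimate for Casp6 was -1.51 (log2, adjusted p = 0.0751) in iWAT, -1.85 (adjusted p = 0.0132) in eWAT and -1.50 (adjusted p = 0.0671) in BAT, and DESeq2 gave an adjusted p of 3.19e-07, 1.28e-12 and 0.00318. Brown adipocyte genes, led by Ucp1, summed to 7338 to 17740 CPM in BAT and to 53.2 to 182.9 CPM in white fat, and epididymis genes reached at most 0.147 CPM in any library. Library 2 of BAT WT stood apart, with 39500 CPM of skeletal muscle genes against 90.96 to 8281 CPM in the other BAT libraries and the lowest brown adipocyte sum.

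The genes of the 3 CD3 chains lie side by side on chromosome 9 (mm10): Cd3g at chr9:44969572-44980431 on the minus strand, Cd3d at chr9:44981786-44987052 on the plus strand and Cd3e at chr9:44998743-45009611 on the minus strand. Cd3g and Cd3d start 1355 bases apart and are read away from each other, and all 3 fall within 40040 bases. Over the 18 libraries log2 CPM of Cd3d and Cd3g had a Pearson r of 0.912, and Cd3e had 0.775 with Cd3d and 0.773 with Cd3g. With Cd8a, on chromosome 6, r was 0.920 for Cd3d, 0.831 for Cd3e and 0.936 for Cd3g, and shared regulation was not tested. The 250 bases before each start are shown, from the RefSeq promoter table (GRCm38.p6, the same coordinates as mm10). They lie at chr9:44980432-44980681 for Cd3g, chr9:44981536-44981785 for Cd3d and chr9:45009612-45009861 for Cd3e. Capitals mark GGAA, the core of sites bound by ETS factors, or its reverse complement TTCC.
Cd3g: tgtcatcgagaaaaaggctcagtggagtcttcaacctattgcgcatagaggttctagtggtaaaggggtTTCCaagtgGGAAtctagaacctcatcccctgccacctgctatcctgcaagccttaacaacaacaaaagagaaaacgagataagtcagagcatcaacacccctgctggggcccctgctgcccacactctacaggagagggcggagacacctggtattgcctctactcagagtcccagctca
Cd3d: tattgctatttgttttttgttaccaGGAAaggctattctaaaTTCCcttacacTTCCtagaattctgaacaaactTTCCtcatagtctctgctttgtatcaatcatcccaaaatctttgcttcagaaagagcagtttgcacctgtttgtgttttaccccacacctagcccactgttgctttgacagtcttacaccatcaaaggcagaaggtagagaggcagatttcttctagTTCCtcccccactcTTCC
Cd3e: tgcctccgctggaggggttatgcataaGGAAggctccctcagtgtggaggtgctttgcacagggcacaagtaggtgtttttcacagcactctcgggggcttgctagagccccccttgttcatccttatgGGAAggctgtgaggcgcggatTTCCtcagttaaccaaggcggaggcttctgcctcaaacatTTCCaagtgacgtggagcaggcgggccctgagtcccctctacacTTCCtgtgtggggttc
The letters occurred 2 times before Cd3g, 6 times before Cd3d and 5 times before Cd3e, and 93.4% of the 32851 promoters in the table held at least 1 match in the same window, with a median of 3. Cd79a (chr7:24897497-24901858, plus strand) was searched for ATGCAAAT, the octamer bound by OCT factors, on both strands of chr7:24897247-24897496. It held 0 matches, and the octamer occurred in 1.6% of the promoters. Cd79a had the largest coefficient of variation of the 9 genes in both eWAT groups (1.09 in WT and 1.56 in C6KO), and its sequence is shown.
Cd79a: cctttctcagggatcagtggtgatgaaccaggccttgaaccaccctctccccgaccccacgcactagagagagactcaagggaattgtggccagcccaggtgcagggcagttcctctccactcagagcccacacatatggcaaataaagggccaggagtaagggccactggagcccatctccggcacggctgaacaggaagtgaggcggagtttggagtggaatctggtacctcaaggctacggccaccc
Cd79b lies at chr11:106311341-106314562 on the minus strand, and it had no entry among these promoters, so its octamer search could not be made. Cd4 is at chr6:124864693-124888200 (minus), Cd8a at chr6:71373427-71379171 (plus) and Lck at chr4:129548344-129558372 (minus).

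Lymphocyte genes were low in most of the 18 libraries and high in a few, and these few came from both genotypes. Summed over the 8 members other than Foxp3, the level was 4.13 to 25.6 CPM in 14 libraries and 80.2 to 126.8 CPM in the other 4, which were eWAT WT libraries 2 and 3, eWAT C6KO library 3 and BAT WT library 2. In eWAT C6KO, library 3 held 83.1% of the group's summed level, and in BAT WT library 2 held 82.8%. Since these are RNAs of whole tissue, fewer lymphocytes and less RNA per lymphocyte cannot be told apart.

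**Figure D1:**
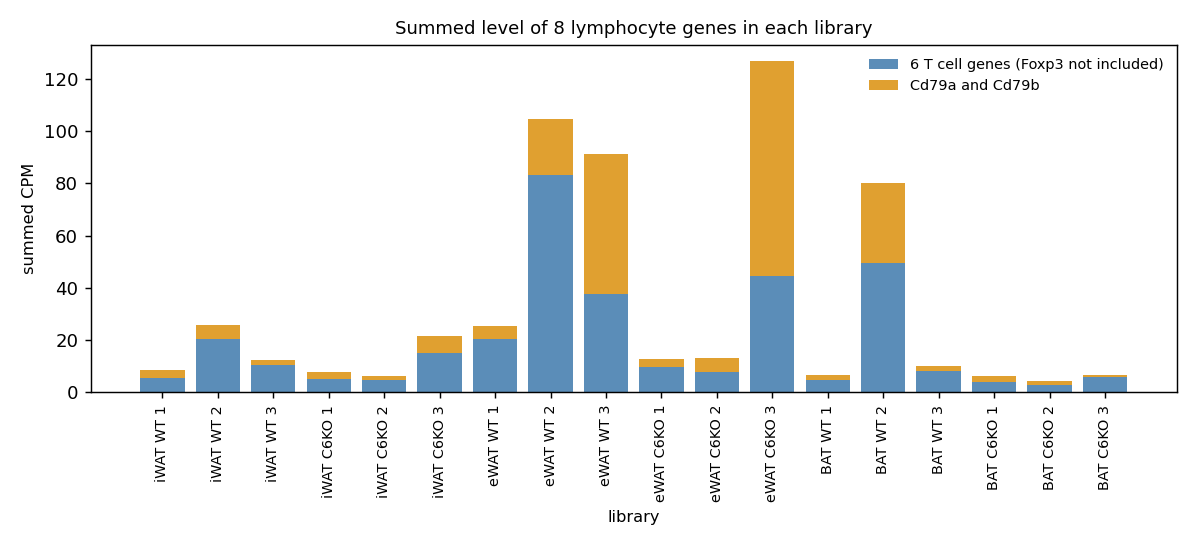
Summed CPM of the 8 lymphocyte genes other than Foxp3 in each of the 18 libraries, with the 6 T cell genes and the 2 B cell genes stacked (linear axis from 0). eWAT C6KO library 3 (126.8 CPM), eWAT WT library 2 (104.8 CPM), eWAT WT library 3 (91.2 CPM) and BAT WT library 2 (80.2 CPM) stand above the rest.

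Cd3e, which encodes the CD3 chain needed to assemble the receptor, had 4.27, 17.1 and 10.3 CPM in the 3 eWAT WT libraries and 2.77, 1.47 and 9.27 CPM in eWAT C6KO, in the order of libraries 1, 2 and 3 used throughout. In BAT it had 1.61, 12.4 and 2.31 CPM in WT and 2.30, 1.35 and 2.14 CPM in C6KO, and in iWAT 1.19, 3.87 and 2.13 CPM in WT and 0.672, 1.65 and 2.81 CPM in C6KO. The genotypes overlapped in every depot, and the highest WT value in each depot was that of library 2. Cd3g, a second CD3 chain, had 3.08, 13.3 and 5.70 CPM in eWAT WT against 0.813, 0.882 and 6.35 CPM in eWAT C6KO. Its BAT values were 0.292, 6.36 and 1.65 CPM in WT and 0, 0.180 and 0.321 CPM in C6KO, and its iWAT values were 1.07, 1.96 and 1.51 CPM in WT and 0.560, 0.494 and 1.89 CPM in C6KO. Cd3d was the lowest of the CD3 genes, with 1.19, 7.42 and 3.43 CPM in eWAT WT and 0.488, 0.637 and 2.92 CPM in eWAT C6KO. In iWAT it had 0.119, 1.78 and 0.672 CPM in WT and 0.841, 0.274 and 0.516 CPM in C6KO. In BAT it had 0.146, 3.93 and 0.330 CPM in WT and 0, 0 and 0.321 CPM in C6KO, where a count of 0 allows up to 0.383 CPM in library 1 and 0.270 CPM in library 2.

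The coreceptors followed the CD3 chains. Cd4, which marks helper T cells and is also transcribed by some myeloid cells, had 3.35, 13.9 and 5.91 CPM in eWAT WT and 0.759, 1.81 and 7.03 CPM in eWAT C6KO. In BAT it had 0.876, 9.63 and 1.87 CPM in WT and 0.383, 0.449 and 1.61 CPM in C6KO, and in iWAT 0.949, 2.91 and 1.68 CPM in WT and 0.617, 0.549 and 3.21 CPM in C6KO. Cd8a, which marks cytotoxic T cells and a subset of dendritic cells, had 4.49, 12.4 and 4.59 CPM in eWAT WT and 1.79, 0.833 and 4.32 CPM in eWAT C6KO. This was the member whose eWAT groups did not overlap, and the gap between the lowest WT and the highest C6KO library was narrow (4.49 against 4.32 CPM). In BAT the Cd8a level was 0.730, 7.57 and 0.991 CPM in WT and 0.128, 0.180 and 0.536 CPM in C6KO, on 1 to 81 counts per library. In iWAT it was 0.712, 3.21 and 1.4 CPM in WT and 0.672, 0.220 and 2.06 CPM in C6KO. The ratio of Cd4 to Cd8a counts lay between 0.424 and 2.18 in the 6 eWAT libraries and showed no split by genotype.

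Lck, the kinase that starts receptor signalling, reached 4.0, 19.3 and 7.81 CPM in eWAT WT and 2.98, 2.16 and 14.6 CPM in eWAT C6KO, so that the second highest library of all 18 was a C6KO library. In BAT it had 1.02, 9.63 and 1.10 CPM in WT and 0.895, 0.449 and 0.750 CPM in C6KO, and in iWAT 1.36, 6.48 and 2.86 CPM in WT and 1.51, 1.54 and 4.41 CPM in C6KO. Across the 18 libraries, the 15 pairs among the 6 T cell genes had Pearson correlations of log2 CPM of 0.773 to 0.936, as a description of libraries that share depots. Per kilobase of counted transcript, the eWAT WT means were 2.31 ± 1.46 CPM per kb (SD, n = 3) for Cd8a and 2.51 ± 1.78 for Cd4. They were 3.03 ± 2.39 for Cd3d, 4.80 ± 3.68 for Lck, 7.25 ± 5.22 for Cd3g and 7.30 ± 4.44 for Cd3e. These SDs are between libraries, and differences between genes within a library were not tested.

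**Figure D2:**
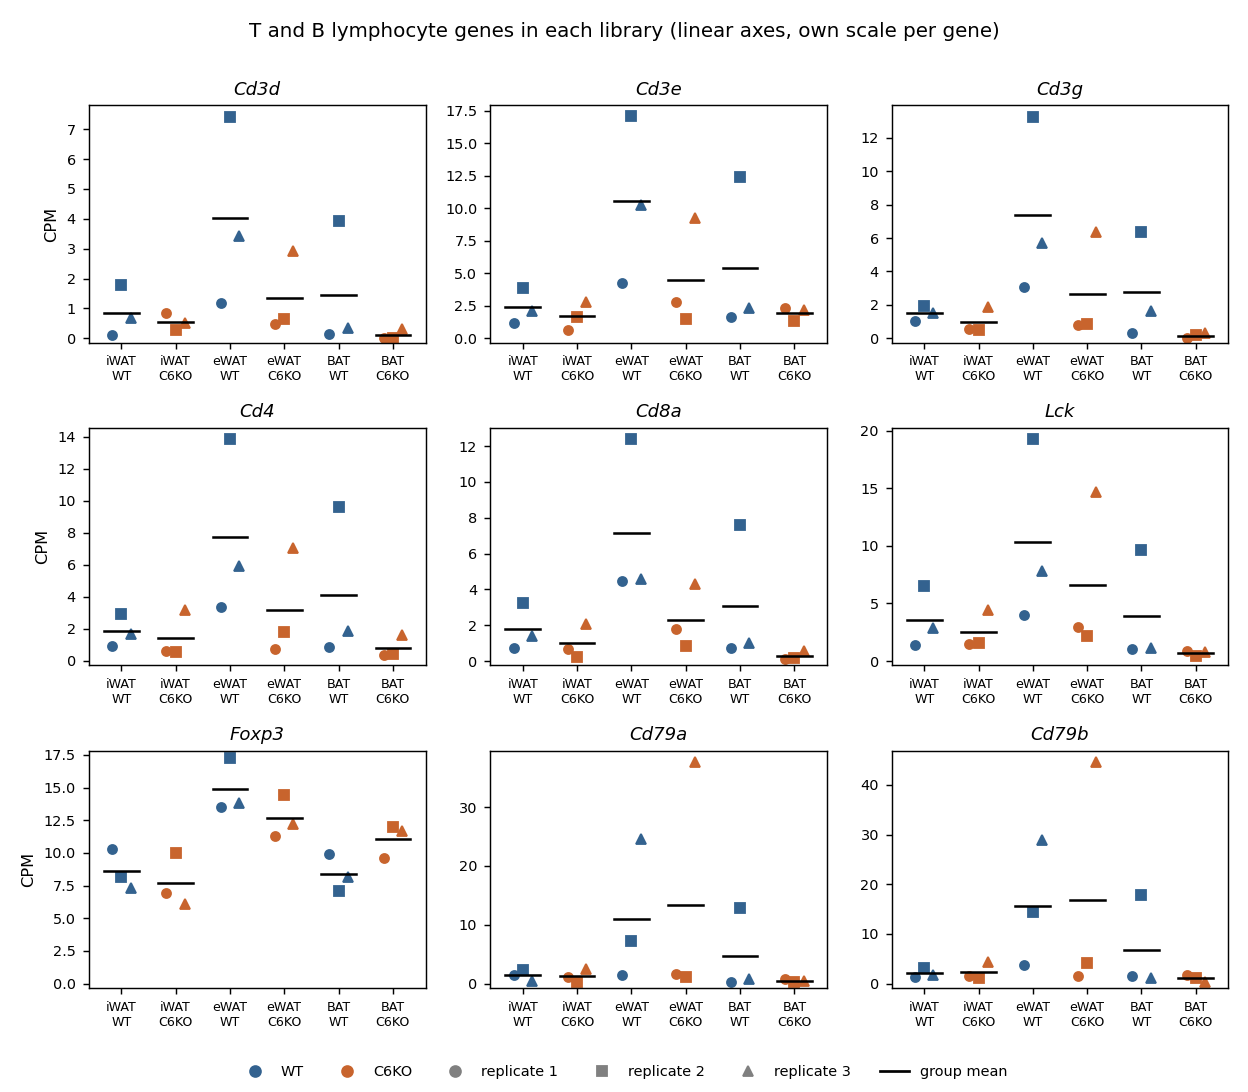
CPM of each of the 9 genes by group (iWAT, eWAT and BAT, WT in blue and C6KO in orange), with 1 point per library, the marker giving the replicate number and the bar the mean of 3 libraries. In eWAT C6KO and BAT WT a single library lies far above the others for the genes other than Foxp3, while the 3 BAT C6KO libraries and those of Foxp3 lie closer together.

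The B cell genes varied more than the T cell genes in eWAT. Cd79a, a signalling chain of the B cell receptor, had 1.41, 7.18 and 24.5 CPM in eWAT WT and 1.57, 1.08 and 37.7 CPM in eWAT C6KO. Its partner Cd79b had 3.68, 14.4 and 29.0 CPM in eWAT WT and 1.63, 4.16 and 44.7 CPM in eWAT C6KO. Library 3 was the highest in both genotypes, and the mean was 11 ± 12 CPM in WT and 13.4 ± 21.0 CPM in C6KO for Cd79a (SD, n = 3). In BAT, Cd79a had 0.292, 12.9 and 0.771 CPM in WT and 0.767, 0.359 and 0.429 CPM in C6KO, and Cd79b had 1.61, 17.8 and 1.10 CPM in WT and 1.66, 1.17 and 0.321 CPM in C6KO. In iWAT the values were 1.54, 2.32 and 0.392 CPM in WT and 1.12, 0.274 and 2.47 CPM in C6KO for Cd79a. For Cd79b they were 1.36, 3.09 and 1.74 CPM in WT and 1.51, 1.15 and 4.30 CPM in C6KO. Outside library 2 of BAT WT, the BAT libraries held 2 to 13 counts of either gene.

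In eWAT WT the 6 T cell genes were highest in library 2 and the 2 B cell genes in library 3, while in eWAT C6KO all 8 were highest in library 3. Compared per kilobase, Cd79a plus Cd79b stood to Cd3d plus Cd3e plus Cd3g as 0.621 in eWAT WT library 2, the library with the highest T cell level (30.5 CPM per kb). The same ratio was 3.15 in eWAT WT library 3 and 5.0 in eWAT C6KO library 3, whose CD3 levels were 15.3 and 14.9 CPM per kb. In the other 15 libraries the ratio lay between 0.340 and 1.90. The pair of libraries rich in B cell genes was made of 1 of each genotype.

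**Figure D3:**
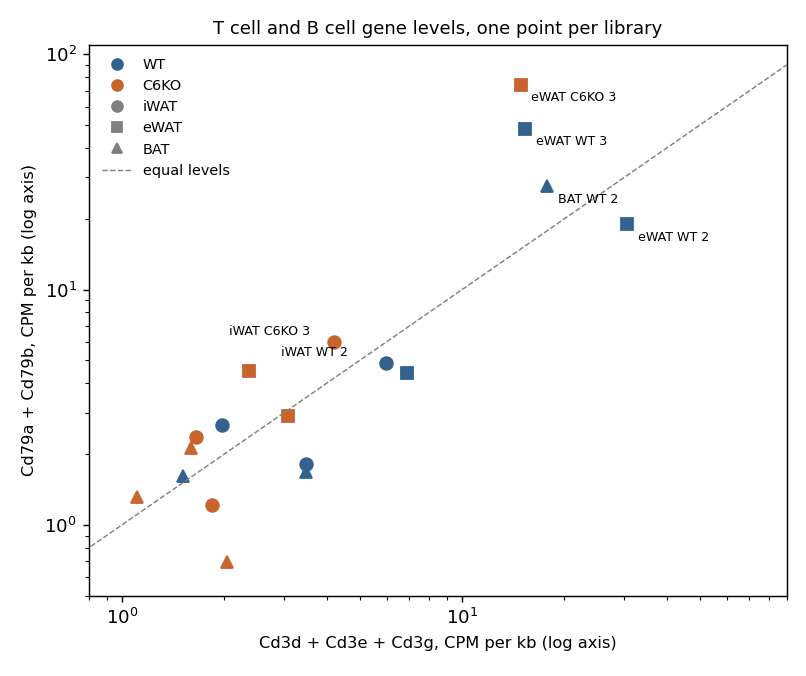
Summed CPM per kb of Cd79a and Cd79b against that of Cd3d, Cd3e and Cd3g, both on log axes, with 1 point per library (blue WT, orange C6KO, circles iWAT, squares eWAT, triangles BAT) and a dashed line of equal levels. eWAT WT library 3 and eWAT C6KO library 3 lie well above the line at 48.3 and 74.4 CPM per kb of the B cell genes, and eWAT WT library 2 lies below it.

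The genes most like the members over the 18 libraries included genes of the same cell types. Of 14200 other genes whose mean reached 1 CPM, the 5 with the highest correlation with the CD3 genes were Grap2 (r = 0.948), Rasgrp1 (0.943), Btla (0.941), Gm1966 (0.931) and Gbp8 (0.931). Grap2 encodes an adaptor of the T cell receptor pathway and Rasgrp1 an activator of RAS in T cells. With Cd79a and Cd79b the 5 included Ms4a1 (0.953), Pou2af1 (0.951) and Pax5 (0.947), of which Ms4a1 and Pax5 are defining B cell genes. These r are across libraries that share depots, and no test was attached to them.

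Foxp3 did not follow the other T cell genes. It had 13.5, 17.3 and 13.8 CPM in eWAT WT, 11.3, 14.4 and 12.2 CPM in eWAT C6KO, 9.93, 7.10 and 8.15 CPM in BAT WT and 9.58, 12 and 11.7 CPM in BAT C6KO. In iWAT it had 10.3, 8.15 and 7.34 CPM in WT and 6.95, 9.99 and 6.08 CPM in C6KO. BAT WT library 2, where the other 8 members were highest in BAT, had the lowest Foxp3 of the 6 BAT libraries. The group means of Foxp3 differed by at most 1.94-fold, against 6.18-fold for Cd3e and 44.0-fold for Cd3g, and its correlations with the other 8 members were 0.166 to 0.324 over the 18 libraries.

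The Foxp3 counts cannot be assigned to Foxp3 RNA alone. In the tables the gene spans chrX:7579676-7595243 (plus strand) in BAT and eWAT, with another of its transcripts counted in each depot. In the GENCODE M21 annotation, 12.9% of its exonic bases are shared with exons of Ccdc22, a broadly expressed gene on the opposite strand, 8.15% with Gm36995 and 5.81% with Ppp1r3f, also on the opposite strand, and 18.6% with Flicr on its own strand. The use of strand in the counting is not given in the sources used here. Over the 18 libraries log2 CPM of Foxp3 had r = 0.855 with Ccdc22 (Spearman's rho 0.847) and r = 0.324 with Cd3e (rho 0.195), and the ratio of Foxp3 to Ccdc22 CPM stayed between 0.301 and 0.529. Of the other members, Cd3e shared 3.31% of its exonic bases with Gm48719 and Lck 0.854% with Mir8119, and 0 were shared by the remaining 6.

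**Figure D4:**
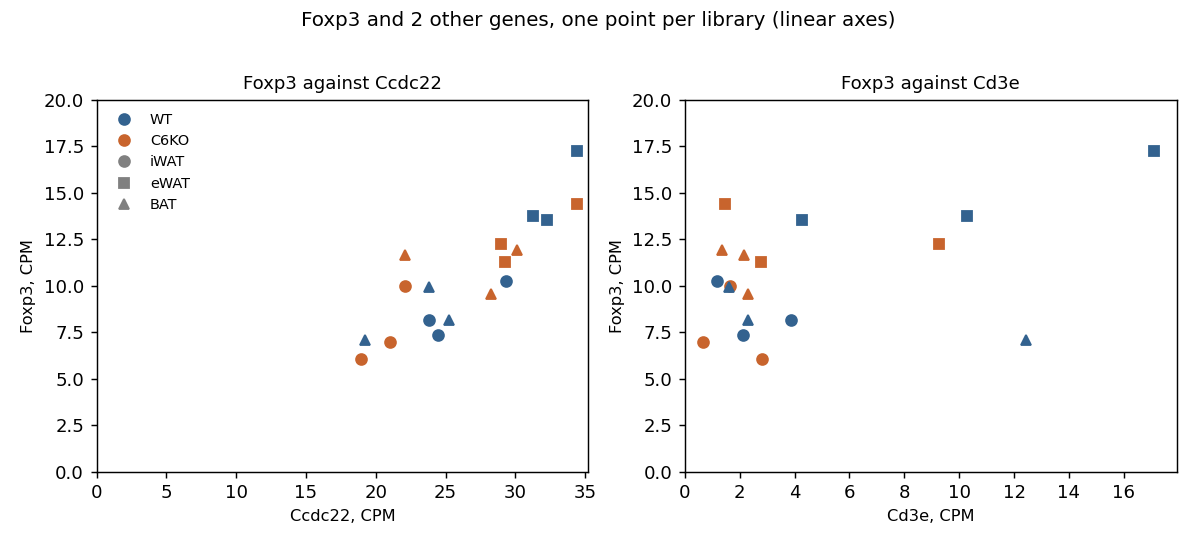
CPM of Foxp3 against CPM of Ccdc22 (left) and of Cd3e (right) on linear axes, with 1 point per library (blue WT, orange C6KO, circles iWAT, squares eWAT, triangles BAT). Foxp3 runs with Ccdc22 and shows no such order with Cd3e, where BAT WT library 2 combines 12.4 CPM of Cd3e with 7.10 CPM of Foxp3.

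The comparison of C6KO with WT asks whether loss of caspase-6 went with fewer lymphocyte transcripts in obese fat. In eWAT the 6 T cell members were estimated lower in C6KO, with edgeR log2 fold changes of -1.57 ± 0.88 (SE) for Cd3d, -1.23 ± 0.84 for Cd3e, -1.45 ± 1.01 for Cd3g, -1.26 ± 0.94 for Cd4, -1.63 ± 0.68 for Cd8a and -0.65 ± 0.99 for Lck, while Cd79a (0.30 ± 1.74) and Cd79b (0.11 ± 1.46) were near 0 and Foxp3 was at -0.23 ± 0.16. By edgeR 0 of the 9 were called (adjusted p under 0.05 and at least 1.5-fold), beside 0.746% of the 14889 genes tested in eWAT, and the adjusted p ran from 0.283 to 0.981. Cd8a alone had an unadjusted p under 0.05 by edgeR, and it was the 1 member called by DESeq2 (log2 -1.62, adjusted p = 0.0439), beside 3.15% of the genes in that test. That call was lost without eWAT WT library 2 (log2 -0.95, DESeq2 adjusted p = 0.663). Groups that did not overlap were found for 1 of 9 members, Cd8a, and for 23.2% of all genes tested. The median over the 9 was -1.23, beside -0.01 over all genes.

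The size of the eWAT difference hung on a few libraries. Without eWAT WT library 2, the edgeR estimates of the 9 members lay between -0.96 and 0.17, with Lck at 0.17 and Cd3e at -0.68. Without eWAT C6KO library 3, all 9 lay below 0, from -3.12 ± 0.71 (SE, adjusted p = 0.0892) for Cd3g to -0.21 for Foxp3, with Cd79a at -3.06 and Cd79b at -2.43. The B cell estimates were also below 0 without eWAT WT library 1 (-0.22 for Cd79a and -0.35 for Cd79b), and were 1.65 and 0.90 without eWAT WT library 3. By edgeR 0 members were called in any of these fits.

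In BAT only Cd3e, Cd4, Foxp3 and Cd79b passed the filter on low counts, while Cd3d, Cd3g, Cd8a, Lck and Cd79a did not. The edgeR estimates were -1.54 ± 0.80 (SE) for Cd3e, -2.37 ± 1.02 for Cd4, -2.74 ± 1.34 for Cd79b and 0.42 ± 0.22 for Foxp3. By edgeR 0 of these 4 were called (adjusted p = 0.383 to 0.468) and 0 had an unadjusted p under 0.05, beside 1.24% of genes called. DESeq2, which set no such filter, called Cd3g (adjusted p = 0.0237) and Cd8a (adjusted p = 0.0315), beside 2.9% of genes, and gave no adjusted p for Cd79a and Cd79b. Groups did not overlap for 0 of the 4 members tested by edgeR and for 19.8% of all genes tested, and of the 5 that failed the filter they did not overlap for Cd8a and Lck. All 8 members other than Foxp3 were highest in BAT WT library 2, the library rich in skeletal muscle genes. Without it, Cd3e was estimated at -0.01, Cd4 at -0.74 and Cd79b at -0.32, and DESeq2 called 0 members, giving no adjusted p for Cd3d, Cd3g, Cd8a and Cd79a. The part of the muscle RNA in the library in these levels was not tested.

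In iWAT no member was called between genotypes by either tool. By edgeR 0 of 9 were called and 0 had an unadjusted p under 0.05, beside 0.0275% of the 14533 genes called, and by DESeq2 0 were called, beside 3.55%. The estimates ran from -0.84 ± 0.81 (SE) for Cd8a to 0.17 ± 0.56 for Cd79b (adjusted p = 0.637 to 0.953), with a median of -0.48 beside 0.03 over all genes. Groups did not overlap for 0 of the 9, beside 23.1% of all genes. Without iWAT WT library 2 the estimates of Cd3d, Cd3e, Cd4, Lck and Cd79a turned above 0 (0.04 to 0.44), and without iWAT C6KO library 3 all 9 lay below 0, down to -1.99, with an adjusted p of at least 0.131.

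**Figure D5:**
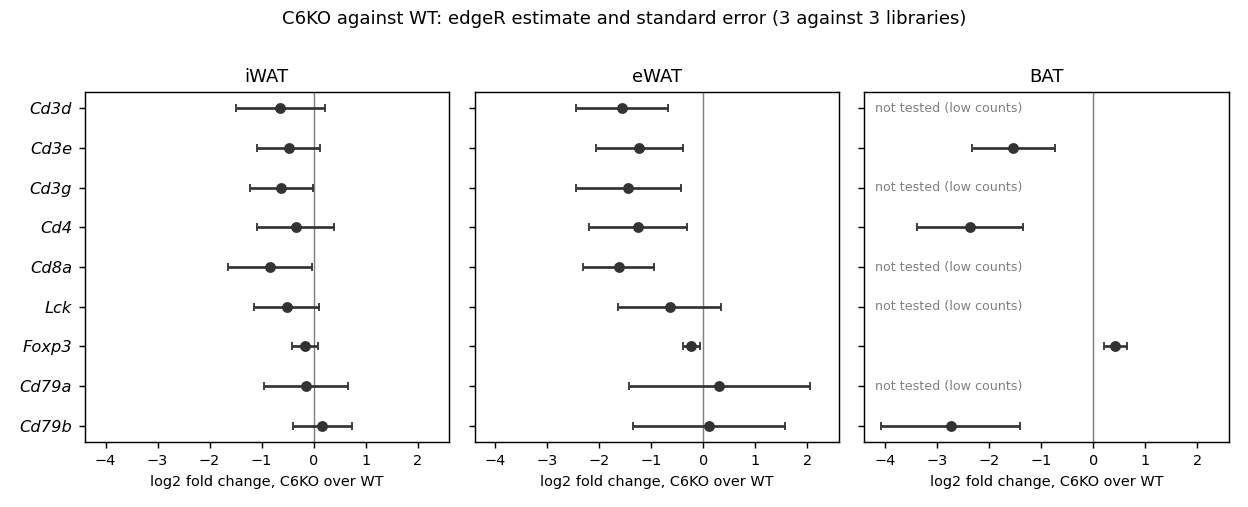
edgeR log2 fold change of C6KO over WT with its standard error (bars) for each of the 9 genes in iWAT, eWAT and BAT, 3 against 3 libraries. The T cell genes lie left of 0 in eWAT, from -1.63 to -0.65, with wide errors, the B cell genes lie near 0 in eWAT, and 5 genes were not tested in BAT.

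The difference of the C6KO effect between depots was tested in a fit of all 18 libraries. By edgeR 0 of 9 members were called for eWAT against iWAT (0% of genes called), 0 for BAT against iWAT (0.183%) and 0 for BAT against eWAT (0.536%), and by DESeq2 0 in each (0.0683%, 0.835% and 1.73% of genes). The counts at an unadjusted p under 0.05 were 0, 0 and 1, the 1 being Foxp3 for BAT against eWAT (log2 0.64 ± 0.30 SE, adjusted p = 0.431 by edgeR). The estimates for BAT against eWAT reached -3.52 ± 2.30 for Cd79a.

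Between depots, Foxp3 was the member called most often. In WT it was higher in eWAT than in iWAT (14.9 ± 2.08 against 8.58 ± 1.51 CPM, SD, n = 3), with an edgeR log2 difference of 0.79 ± 0.21 (SE, adjusted p = 0.00779), and lower in BAT than in eWAT (8.39 ± 1.43 CPM in BAT) by -0.83 ± 0.21 (adjusted p = 0.00305). Ccdc22, with which its exons overlap, had -0.52 ± 0.15 in the latter comparison (adjusted p = 0.00544) and 0.34 ± 0.14 in the former (adjusted p = 0.0825). Foxp3 was the 1 of 9 members called for eWAT against iWAT in WT, beside 25.7% of genes, and the 1 of 9 for BAT against eWAT in WT, beside 48.6%. DESeq2 called 4 members in the former (Foxp3, Cd3e, Cd3g and Cd79b, beside 21.7% of genes) and 1 in the latter (Foxp3, beside 38.4%). The other 8 members were estimated 1.54 (Lck) to 2.96 (Cd79a) higher in eWAT than in iWAT on the log2 scale, with an edgeR adjusted p of 0.0589 to 0.218, and Cd3e was called as well without eWAT WT library 1 (2 members called). For BAT against eWAT, 6 members were called without BAT WT library 2 (Foxp3, Cd3d, Cd3e, Cd3g, Cd8a and Lck). The share of all genes called in that fit is not given here. For BAT against iWAT in WT, edgeR called 0 members (38.7% of genes) with 0 at an unadjusted p under 0.05, and DESeq2 called 0 (31% of genes).

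Of all 15866 genes tested for BAT against eWAT in C6KO mice, edgeR called 50.1% in either direction, with 4199 genes lower in BAT. Among the 9 members 5 were called, a share near that of calls in either direction, and each was lower in BAT. They were Cd3g (-3.88 ± 1.26, SE, adjusted p = 0.0154), Lck (-3.25 ± 1.10, adjusted p = 0.0197), Cd79b (-4.01 ± 1.44, adjusted p = 0.0281), Cd8a (-3.00 ± 1.14, adjusted p = 0.0343) and Cd79a (-4.72 ± 1.82, adjusted p = 0.0393). DESeq2 called 6 (with Cd3d), beside 39.7%. Groups did not overlap for 5 members (Cd3d, Cd3g, Cd8a, Lck and Cd79a), a smaller share than the 64.6% of all genes. The calls hung on single libraries: 0 members were called without eWAT C6KO library 3 and 0 without BAT C6KO library 2, 1 (Lck) without BAT C6KO library 1 and 3 (Cd3d, Cd3g and Cd8a) without BAT C6KO library 3. Foxp3 was the 1 member called for eWAT against iWAT in C6KO (0.72 ± 0.21 SE, edgeR adjusted p = 0.0142), beside 24.6% of genes. Ccdc22, with which its exons overlap, had 0.58 ± 0.14 there (edgeR adjusted p = 0.00538, under the fold minimum). DESeq2 called 3 there (Foxp3, Cd79a and Cd79b, beside 20.5%), and by edgeR 0 were called without iWAT C6KO library 1, iWAT C6KO library 3 or eWAT C6KO library 2. For BAT against iWAT in C6KO edgeR called 0 of 9, beside 38.2% of genes, and DESeq2 called 0, beside 31.1%. The 1 member there with an unadjusted p under 0.05 was Foxp3 (0.53 ± 0.21 SE, edgeR adjusted p = 0.0488, under the fold minimum), which was called without iWAT C6KO library 2 or BAT C6KO library 1 (1 member each). Ccdc22 had 0.37 ± 0.14 SE for BAT against iWAT in C6KO (edgeR adjusted p = 0.0432, under the fold minimum).

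The wider T and B cell lists showed the same libraries. In eWAT, 23 of 28 other T cell genes were highest in WT library 2, which held the highest level of 18.1% of all genes, and 16 of 18 other B cell genes were highest in C6KO library 3, which held that of 16.1%. In BAT, 25 of the 28 T cell genes and 15 of the 18 B cell genes were highest in WT library 2, beside 23.4% of all genes. Among the most abundant T cell genes of the list, Il2rb peaked in eWAT WT library 2 (30.1 CPM), whereas Cd247, which encodes the zeta chain of the receptor, lay between 2.57 and 10.8 CPM, highest in iWAT WT library 1. NK and innate lymphoid genes were highest in eWAT WT library 2 for 11 of 12, led by Ccl5 (59.9 CPM there).

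Between C6KO and WT, edgeR called 0 other T cell genes in any depot (18, 27 and 6 of 28 tested in iWAT, eWAT and BAT, with 2, 3 and 1 at an unadjusted p under 0.05). DESeq2 called 1 in iWAT (higher in C6KO), 1 in eWAT (Sh2d1a, lower) and 2 in BAT (both lower, among them Cd8b1). By edgeR 1 was called in iWAT without C6KO library 3 and 1 in BAT without WT library 2, both higher in C6KO. Of the other B cell genes, Cd72 fell in eWAT (-1.10 ± 0.15 SE, edgeR adjusted p = 0.0342) and Cd72 (-1.29 ± 0.22, adjusted p = 0.0305) and Blnk (-1.72 ± 0.31, adjusted p = 0.0366) fell in BAT, where 4 of 18 were tested. Both are also known in myeloid cells. Blnk was at 139.3, 120.1 and 150.1 CPM in eWAT WT and at 104.4, 120.8 and 117.9 CPM in eWAT C6KO, without the peak that Cd79a had in library 3 of either genotype. DESeq2 called 1 of the list in eWAT (Cd72) and 4 in BAT (with Cd22 and Spib). No B cell gene was called in eWAT without WT library 1, 2 or 3 (0 each). In BAT the count of 2 fell to 1 (Cd72) without WT library 2, to 1 (Blnk) without WT library 3 and to 0 without any of the other 4 libraries. In iWAT 0 of 13 tested were called (2 at an unadjusted p under 0.05, 1 by DESeq2), and 3 without C6KO library 3 (Cd22, Cd72 and Blnk). The median log2 fold change of the other T cell genes was -0.46 in iWAT and -0.82 in eWAT, and that of the other B cell genes -0.54 and 0.06, beside 0.03 and -0.01 over all genes.

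Regulatory T cell, plasma cell and signalling genes were compared between genotypes in the same fits, in which edgeR called 0.0275%, 0.746% and 1.24% of all genes in iWAT, eWAT and BAT, and DESeq2 3.55%, 3.15% and 2.9%. Of the 12 regulatory T cell genes 1 fell in eWAT, Il1rl1, the receptor of interleukin 33 (-0.91 ± 0.16 SE, edgeR adjusted p = 0.0445), a call that held without eWAT C6KO library 2 and was lost (0) without each of the other 5. DESeq2 called 3 lower there (with Il10 and Tnfrsf4) and Areg higher. In iWAT Il1rl1 had 9.61, 10.3 and 9.07 CPM in WT and 3.53, 4.45 and 4.07 CPM in C6KO (log2 -1.26 ± 0.21 SE, edgeR adjusted p = 0.121), and it was called lower there by DESeq2, and by edgeR without C6KO library 3. Of the 8 plasma cell genes edgeR called 0 in each depot (4, 2 and 1 at an unadjusted p under 0.05), with DESeq2 calling Xbp1 higher in iWAT and Irf4 higher in BAT. Xbp1 was at 88.9 CPM or more in every library, and the cell source of the Xbp1 and Irf4 RNA was not tested. Jchain, which joins secreted immunoglobulin, had 3.97, 44.2 and 19.6 CPM in iWAT WT and 0.616, 1.43 and 5.22 CPM in iWAT C6KO. In BAT Jchain had 7.88, 41.1 and 5.29 CPM in WT and 2.17, 2.16 and 5.14 CPM in C6KO. Over the 18 libraries Jchain ranged from 0.616 to 304.1 CPM with its peak in eWAT WT library 2. Of 38 genes of T and B cell receptor signalling, 0 were called in iWAT, 1 in eWAT (Cd72) and 4 in BAT (all lower, among them Blnk, Cd72 and Pik3ap1, the last at -1.36 ± 0.26 SE). The BAT count was 2 without WT library 2, 1 without WT library 3 and 0 without any of the other 4 libraries. DESeq2 called 10, 5 and 11 of the list lower in iWAT, eWAT and BAT. By edgeR 18 had an unadjusted p under 0.05 in iWAT, and 18 were called lower there without C6KO library 3, a fit whose share of all genes is not given here. The most abundant genes of that list, Syk, Ptprc and Plcg1, are not limited to lymphocytes.

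Genes of lymph node stroma and vessels were read beside the members, since lymph nodes lie in fat pads. Cxcl13, the chemokine that draws B cells into follicles, had 4.7, 6.7 and 44.7 CPM in eWAT WT and 1.5, 3.2 and 53.7 CPM in eWAT C6KO, so that it was high in the same library 3 of each genotype as Cd79a and Cd79b. It was at 0.661 to 7.5 CPM in BAT and 1.5 to 7.1 CPM in iWAT. Ltb and Ccr7 were also highest in eWAT WT libraries 2 and 3, eWAT C6KO library 3 and BAT WT library 2 (9.3 to 15.3 and 8.6 to 10.4 CPM). Genes of high endothelial venules were low, with Chst4 at most 4.3 CPM and at 0 in BAT and iWAT, and Madcam1 at most 2.1 CPM. Glycam1 had 1.87 CPM in eWAT C6KO library 3 (36 counts), 1.59 CPM in BAT WT library 2 (17 counts) and 0.792 CPM in eWAT WT library 3 (15 counts). It had 3 counts in eWAT WT library 2 and at most 1 count in any other library. In iWAT Madcam1 had 0.237, 0.238 and 0.056 CPM in WT and 2.07, 1.65 and 1.78 CPM in C6KO, and the groups did not overlap (log2 3.34 ± 0.59 SE, edgeR adjusted p = 0.121). It was called higher in C6KO by DESeq2, and by edgeR without C6KO library 3. DESeq2 also called Ccr7 and Ltb lower in BAT C6KO, where both were highest in WT library 2, and called neither without that library. Ccl19 reached 1.7 CPM, and Ccl21a ranged up to 14.1 CPM in eWAT and up to 7.6 CPM in BAT. The 9 genes summed to 122.7 CPM in eWAT C6KO library 3, 89.7 in eWAT WT library 3, 54.6 in BAT WT library 2 and 56.1 in eWAT WT library 2, against 6.28 to 25.1 CPM in the other 14. The part of lymph node tissue in the members' levels was not tested. Of the genes of immature lymphocytes, Rag1 and Rag2 were at 0 counts in all 18 libraries. Arpp21 had 9.0 CPM in BAT WT library 2, the library rich in skeletal muscle genes, and at most 1.7 CPM elsewhere. Ptcra had 0 counts and Dntt 2 counts in BAT WT library 2, and the source of its Arpp21 RNA was not tested.

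Macrophage genes and genes of all leukocytes were read beside the members, in the same fits. The summed level of 14 macrophage genes was 7881 to 9895 CPM in eWAT WT and 4920 to 6677 CPM in eWAT C6KO. In BAT it was 915.6 to 1278 CPM in WT and 364.8 to 548.1 CPM in C6KO. In iWAT it was 2344 to 2690 CPM in WT and 622.9 to 1736 CPM in C6KO, so that the genotypes did not overlap in any depot. In BAT, where edgeR called 1.24% of all genes, 6 of the 14 fell (Adgre1, C1qc, Cd68, Itgax, Lyz2 and Trem2), as did 5 of 10 genes of all leukocytes (Cd48, Cd52, Cd53, Coro1a and Laptm5), for example Cd53 by -2.08 ± 0.29 (SE, edgeR adjusted p = 0.0135). As each BAT library was left out the first count ran from 2 (without C6KO library 2 or 3) to 8 (without WT library 2) and the second from 0 (without C6KO library 1 or 2) to 6 (without WT library 2). In iWAT 0 genes of either list were called by edgeR (12 and 9 at an unadjusted p under 0.05, 8 and 6 by DESeq2, which called 3.55% of all genes). Without C6KO library 3 edgeR called 12 and 10, and the share of all genes in that fit is not given here. C6KO library 3 had the highest macrophage sum of the iWAT C6KO libraries (1736 CPM against 622.9 and 645.2). That library was also the highest of its group for Cd3e, Cd3g, Cd4, Cd8a, Lck, Cd79a and Cd79b. In eWAT edgeR called 0 of either list (12 and 7 at an unadjusted p under 0.05, 5 and 1 by DESeq2), and 1 macrophage gene, Itgax, without C6KO library 2. The part of these differences in the members' levels was not tested.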

How the data were processed

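RNA with poly(A) tails from iWAT, eWAT and BAT of WT and C6KO mice (3 libraries each) had been sequenced and mapped by the authors to mm10 with STAR, and exon reads were summed per gene with HOMER. The deposited values are raw counts per gene, in 1 table per depot. The annotation, the tool versions and the use of strand are not given in the sources used here. In 2619 genes the transcript counted differs between tables, which bears on Foxp3 and Cd8a between depots.

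Libraries were grouped by their labels. C6KO was compared with WT within each depot (6 libraries a fit), and depots were compared in a fit of all 18, with edgeR 4.0.16 (quasi-likelihood test, TMM scaling, filterByExpr, R 4.3.3) and Benjamini-Hochberg adjustment over all genes tested. A gene was called at an adjusted p under 0.05 and a fold of at least 1.5. DESeq2 1.42.0, other scalings, no filter, a replicate block and leaving out each library were alternatives. The scripts were tested on simulated data. The labels do not say that libraries of a group came from separate mice, so p-values measure the spread between these libraries. Intervals and limits from counts of 0 cover counting error only. The named genes were the 9 members, Casp6, the lymph node genes, the genes called in each list, the 3 most abundant genes of a list and the 5 most like the CD3 and CD79 genes, and those named beyond this rule were chosen after their values were seen. The members and the lists were chosen with earlier results of these data known. Some genes of the lists are not reported here by name.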

Additional observations from a re-analysis of the deposited data

How the results depend on the processing

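By edgeR 0 members were called between genotypes in any depot as each library was left out (0 to 0). DESeq2 called 1 in eWAT and 2 in BAT. For eWAT against iWAT in WT, where 1 was called, DESeq2 called 4, scaling by total counts 2, a fit of those groups alone 6 and a replicate block 7, and leaving out a library gave 1 to 2. For BAT against eWAT in WT the block gave 7, and leaving out a library 1 to 6. Shares of all genes called are given here for the main edgeR and the DESeq2 fits only. Counts from fits with a library left out, with the block or of the groups alone have no such share beside them. In C6KO, eWAT against iWAT gave 3 by DESeq2 and 2 with the block (0 to 1 as libraries were left out), BAT against iWAT 3 with the block and 1 in a fit of those groups alone (0 to 1), and BAT against eWAT 3 in a fit of those groups alone (0 to 6). As single libraries were left out, these edgeR estimates (log2) changed sign. Between genotypes in iWAT they ranged from -1.15 to 0.44 for Cd3d, -1.05 to 0.04 for Cd3e, -1.66 to 0.14 for Cd4, -1.23 to 0.23 for Lck, -1.03 to 0.41 for Cd79a and -0.64 to 0.58 for Cd79b. In eWAT they ranged from -2.02 to 0.17 for Lck (0.18 by DESeq2 without WT library 2, added after seeing the data), -3.06 to 1.65 for Cd79a and -2.43 to 0.90 for Cd79b. For BAT against iWAT in WT the ranges were -1.76 to 1.92 for Cd3d, -0.27 to 1.73 for Cd3e, -0.57 to 1.41 for Cd3g, -0.40 to 1.67 for Cd4, -1.02 to 1.57 for Cd8a, -1.74 to 0.92 for Lck, -0.17 to 0.11 for Foxp3, -1.33 to 2.31 for Cd79a and -0.63 to 2.26 for Cd79b. For BAT against eWAT in WT Cd79a ranged from -4.29 to 0.15. In C6KO, eWAT against iWAT ranged from -0.20 to 2.33 for Cd3g and -0.17 to 2.44 for Cd4, and BAT against iWAT from -0.22 to 0.71 for Cd3e and -1.77 to 0.48 for Cd4. With the replicate block, Cd79a (-0.48) and Cd79b (-0.65) in eWAT between genotypes and Lck for BAT against iWAT in WT (-0.21) turned below 0. The replicate numbers were not taken as pairs: same-numbered libraries of the genotypes correlated at -0.458 to 0.146 within depots, and those of the depots at -0.0655 to 0.219 within genotypes, beside -0.246 to 0.16 for different numbers. As a hint from the data, a library correlated best with its own number in 22 of 36 comparisons between depots, and for eWAT and iWAT in WT, where the block gave 7 calls, the mean was 0.118 for the same number and -0.0589 for different numbers. The causes were not tested. With 3 libraries a group and 1 library holding most of a group's level, differences of several fold in the T and B cell genes did not reach the threshold, and in BAT 5 members were under the filter.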

Other observations

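WT replicate 2 held the highest level of all 6 T cell members in its group in iWAT, eWAT and BAT (6 of 6 in each). In C6KO, replicate 3 held the highest level of 5 of 6 in iWAT, 6 of 6 in eWAT and 4 of 6 in BAT. The labels do not say whether libraries of the same number came from the same mouse.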
